A study of Mus musculus with 18 samples.

Results

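The genes described here make ceramides and the sphingolipids built from them: the serine palmitoyltransferase subunits Sptlc1 and Sptlc2, the ceramide synthases Cers2, Cers3 and Cers4, the dihydroceramide desaturase Degs1, the fatty acid elongases Elovl1 and Elovl4, the glucosylceramide synthase Ugcg and the acid sphingomyelinase Smpd1. They were taken by gene symbol, and all 10 were found among the 13816 gene IDs of the authors' deposited table. The RNA came from cells sorted out of mouse dorsal skin after trypsin digestion, and was measured by bulk sequencing. In each of 3 sorted populations, labelled EpSCs, Germ and Bulge, skin at day 2 of DPCP (diphenylcyclopropenone, a contact sensitizer) was set against control skin at day 0. Each of the 6 groups had 3 samples. Per the labels the cells were dermal keratinocytes, isolated as hair follicle stem cells by surface markers that are not named, and no strain or age is stated. The labels do not say whether samples came from separate animals, so the p-values may measure only the spread between these samples. The DPCP groups are of day 2 and the control groups of day 0, so treatment and day cannot be told apart.

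Ceramide synthesis starts in the endoplasmic reticulum, where serine palmitoyltransferase joins serine to a fatty acyl-CoA. The resulting sphingoid base is acylated by a ceramide synthase, each with its own preference for fatty acid length, and a desaturase then completes the ceramide. In the epidermis, ultra-long-chain ceramides made with Elovl4 and Cers3 are glucosylated by Ugcg, carried in lamellar bodies and turned back into ceramides that form the lipid barrier of the stratum corneum. Mice that lack Cers4 lose hair and have a disturbed follicle cycle.

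All fold changes, p-values and adjusted p-values of single genes are the authors' own, made with limma. A gene is said to have risen or fallen where its deposited adjusted p (Benjamini-Hochberg over all genes) was under 0.05. Columns of values per library carried no sample's label and were not used, so levels, standard deviations and depth are not given. The error beside a fold change is a 95% interval on the log2 scale, rebuilt from the deposited p-value. The change of an RNA in a sorted population can come from the cells or from which cells were sorted, and less RNA per cell and fewer cells of a type cannot be told apart.

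In EpSCs of DPCP skin, transcripts of both serine palmitoyltransferase subunits, 2 ceramide synthases, the desaturase, both elongases and glucosylceramide synthase rose. Of the 10 genes, 8 rose and 0 fell in EpSCs in the authors' deposited table, where 19.9% of all genes rose. In Bulge 4 rose and 0 fell, beside 5.12% of all genes that rose there, and in Germ 1 rose and 0 fell, beside 0.847%. The 10 genes were chosen with earlier results of these data known, so these counts are no independent test. The median log2 fold change of the 10 genes was 0.94 in EpSCs, 0.80 in Germ and 0.64 in Bulge, and that of all genes was −0.0034, 0.10 and −0.02 in the same order. Ugcg alone rose in all 3 populations, Sptlc2 and Elovl1 rose in EpSCs and Bulge, Cers3 rose in Bulge, and Sptlc1, Cers2, Cers4, Degs1 and Elovl4 rose in EpSCs. Smpd1 was not called in any population.

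Markers of the sorted cells also moved. Over all genes 19.9% rose and 20.0% fell in EpSCs, 0.847% and 0.210% in Germ, and 5.12% and 5.16% in Bulge. Of 6 basal epidermis markers, 5 fell in EpSCs in the authors' deposited table (median log2 fold change −1.11). There 5 of 8 bulge markers rose and 1 fell (median 1.73), and 5 of 5 upper follicle markers rose (median 4.13). The bulge marker that fell was Krt15 (−1.71, adjusted p = 0.000229), and Cd34 and Fgf18 were not called in EpSCs (adjusted p = 0.273 and 0.106). Hair germ markers had 1 of 6 higher and 4 lower in EpSCs (median −1.40), 0 called in Germ (median 0.82) and 0 higher and 3 lower in Bulge (median −2.05). The higher one in EpSCs was Lgr5 (2.02, adjusted p = 0.0287), which is also counted among the bulge markers that rose. Bulge markers in Bulge had 0 of 8 higher and 1 lower (median 0.05), and upper follicle markers 2 of 5 higher (median 1.24). Leukocyte markers had 2 of 9 higher and 2 lower in EpSCs (median −0.88), 0 called in Germ (median 1.93, with 9 of 9 above 0) and 2 higher in Bulge (median 0.31). The higher ones were S100a8 and S100a9 in both EpSCs and Bulge, which keratinocytes can also express, and the lower ones in EpSCs were Ptprc (−3.64) and Adgre1 (−3.85) in the authors' deposited table. The part of these shifts in the results of the ceramide genes was not tested, and whether each population carried its defining markers was not analysed here, since levels were not used.

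**Figure D1:**
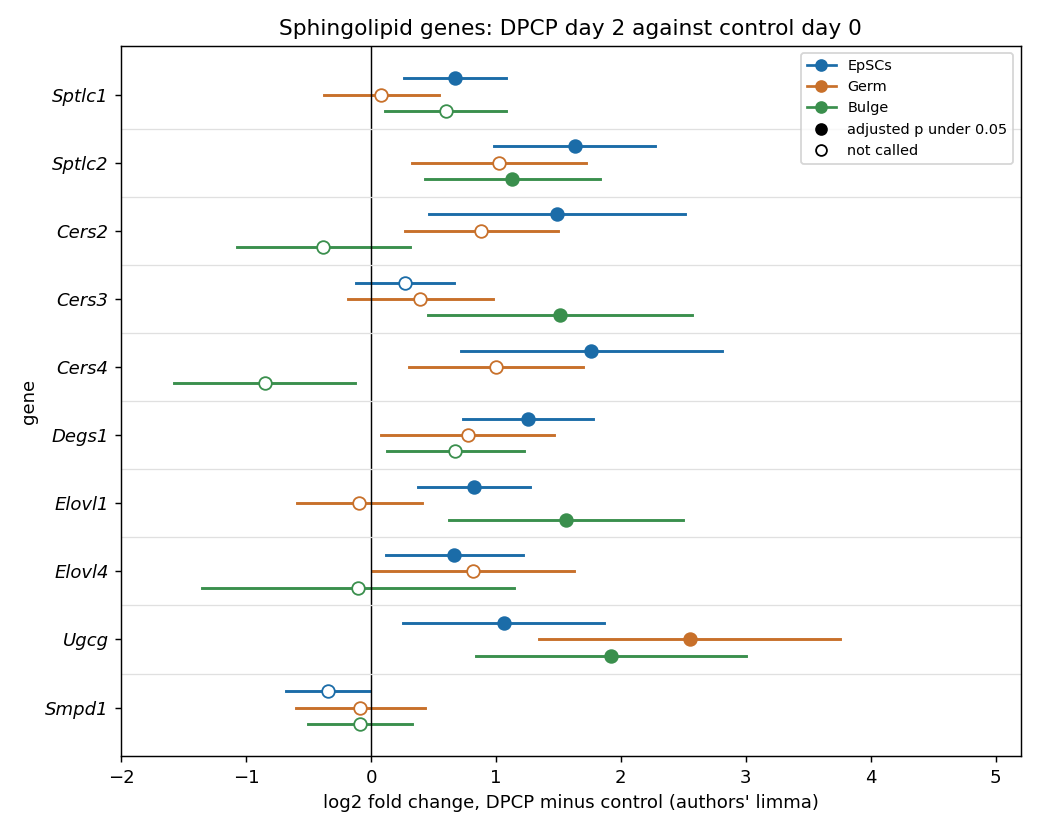
Log2 fold change (DPCP minus control, from the authors' limma fit) of each of the 10 genes in EpSCs, Germ and Bulge, with rebuilt 95% intervals as lines; filled points have an adjusted p under 0.05. Ugcg is filled in all 3 populations, and Cers4 lies at 1.76 in EpSCs and at −0.85 in Bulge.

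Sptlc2, the catalytic subunit of serine palmitoyltransferase (chr12:87305058-87388355, minus strand, GRCm38), rose 3.09-fold in EpSCs in the authors' deposited table (log2 1.63, interval 0.98 to 2.28, adjusted p = 4.82e-05). It rose 2.19-fold in Bulge (1.13, interval 0.43 to 1.83, adjusted p = 0.0266), and in Germ it stood at 1.03 (interval 0.33 to 1.72, adjusted p = 0.0863) in that table. Its partner Sptlc1 (chr13:53332748-53377397, minus strand), the subunit with which it forms the enzyme, rose 1.59-fold in EpSCs (0.67, adjusted p = 0.00669). In Germ and Bulge the authors' deposited table had Sptlc1 at 0.08 and 0.60 (adjusted p = 0.824 and 0.0883). The estimates of Sptlc2 lay above 1 in all 3 populations, and no difference between populations passed the test for either subunit. With a t score in place of the normal score, a looser alternative, Sptlc2 passed for EpSCs minus Germ (adjusted p = 0.0472).

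The estimates of the ceramide synthases were unlike each other. Cers4 (chr8:4493026-4531680, plus strand), which prefers long-chain acyl-CoAs, rose 3.40-fold in EpSCs in the authors' deposited table (1.76, interval 0.72 to 2.81, adjusted p = 0.00509), the largest fold change of the 10 genes in that population. It stood at 0.9998 in Germ (interval 0.30 to 1.70, adjusted p = 0.0914) and at −0.85 in Bulge (interval −1.58 to −0.13, adjusted p = 0.104) in the same table. Cers2 (chr3:95314791-95323599, plus strand), which makes very-long-chain ceramides and is widely expressed, had estimates in the same order. It rose 2.81-fold in EpSCs (1.49, adjusted p = 0.0156) and stood at 0.88 in Germ and −0.38 in Bulge (adjusted p = 0.0914 and 0.48) in the authors' deposited table. Cers3 (chr7:66743504-66823691, plus strand), the synthase of ultra-long-chain ceramides in the epidermis, had estimates in the opposite order. With the normal score, no Cers3 difference between populations passed the test (adjusted p = 0.869, 0.145 and 0.282 for EpSCs minus Germ, EpSCs minus Bulge and Germ minus Bulge). Cers3 rose 2.85-fold in Bulge (1.51, interval 0.45 to 2.57, adjusted p = 0.0496) and stood at 0.27 in EpSCs and 0.39 in Germ (adjusted p = 0.274 and 0.362) in the authors' deposited table. The Bulge call of Cers3 lay just under the threshold.

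Whether these effects differed between populations was tested as the difference of 2 deposited log2 fold changes over a standard error rebuilt from their p-values, an approximation, with Benjamini-Hochberg adjustment over all genes. The Cers4 effect was larger in EpSCs than in Bulge by 2.62 (interval 1.34 to 3.89, adjusted p = 0.00262) and larger in Germ than in Bulge by 1.85 (interval 0.85 to 2.86, adjusted p = 0.014). The Cers2 effect was larger in EpSCs than in Bulge by 1.87 (interval 0.64 to 3.11, adjusted p = 0.0366). For Cers3 the EpSCs effect minus that of Bulge was −1.24 (interval −2.37 to −0.11, adjusted p = 0.145), which did not pass, though it did with the t score (adjusted p = 0.0298). In this test 2 of the 10 genes were called for EpSCs minus Bulge, beside 10.4% of all genes. For Germ minus Bulge 2 were called, beside 5.99% of all genes. For EpSCs minus Germ 0 were called, beside 12.2% of all genes, with 2 at an unadjusted p under 0.05 and a smallest adjusted p of 0.0563, that of Elovl1. As an alternative, each standard error was rebuilt with a t score of 4 degrees of freedom. The p-value then came from a t distribution with the degrees of freedom of the 2 effects added. For EpSCs minus Germ this t score called 3 of the 10 genes (Ugcg, Elovl1 and Sptlc2), beside 18.2% of all genes. For EpSCs minus Bulge it called 5 (Cers2, Cers4, Cers3, Elovl1 and Degs1), beside 20.0%. It was the looser test, calling more of all genes than the normal score did.

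**Figure D2:**
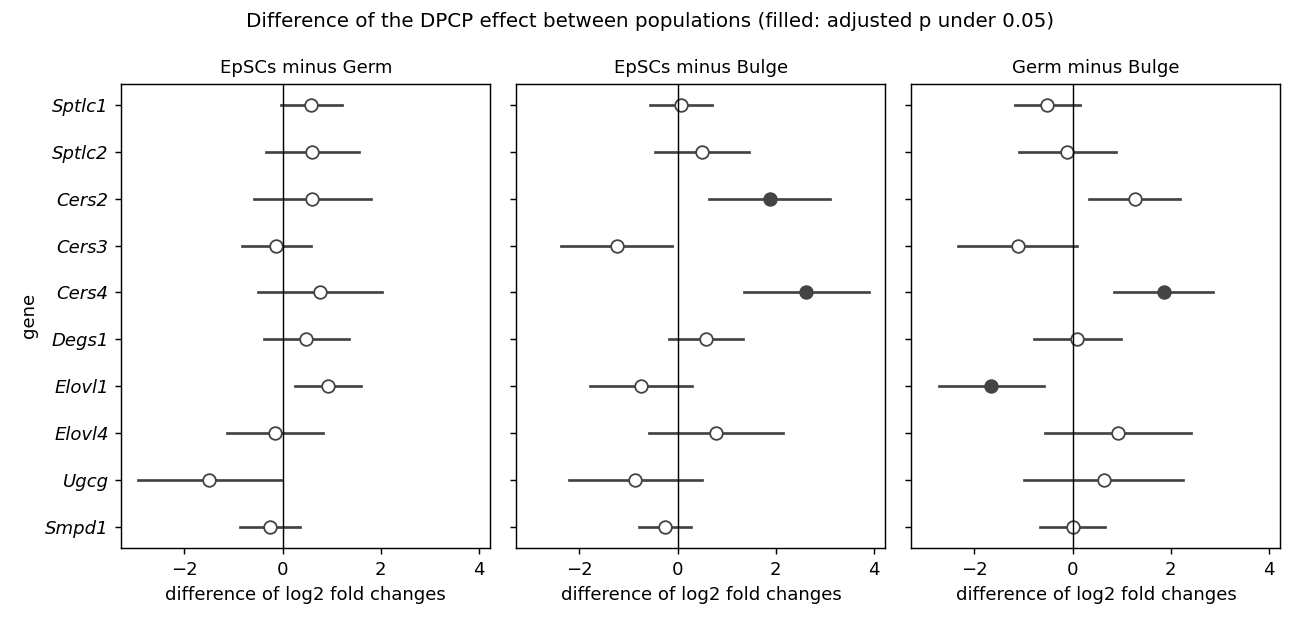
Difference of the DPCP effect between each pair of populations (first minus second, in units of log2 fold change) for the 10 genes, with rebuilt 95% intervals; filled points have an adjusted p under 0.05. Cers4 is filled in both comparisons with Bulge, at 2.62 and 1.85, and Elovl1 is filled at −1.65 for Germ minus Bulge.

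Degs1 (chr1:182275772-182282804, minus strand), which introduces the double bond that turns dihydroceramide into ceramide, rose 2.39-fold in EpSCs in the authors' deposited table (1.26, interval 0.73 to 1.78, adjusted p = 9.61e-05). It stood at 0.77 in Germ and 0.68 in Bulge there (adjusted p = 0.16 and 0.0894). The effect in Germ minus that in Bulge was 0.10 with an interval of −0.79 to 0.98, and that in EpSCs minus that in Bulge was 0.58 with an interval of −0.18 to 1.34. Neither passed the test (adjusted p = 0.931 and 0.339), though the EpSCs difference did with the t score (adjusted p = 0.0477).

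The elongases also differed from each other. Elovl1 (chr4:118428093-118432953, plus strand), which makes saturated very-long-chain acyl-CoAs, rose 2.95-fold in Bulge (1.56, interval 0.62 to 2.50, adjusted p = 0.0228) and 1.77-fold in EpSCs (0.82, adjusted p = 0.0023) in the authors' deposited table. In Germ the same table had it at −0.09 (interval −0.59 to 0.41, adjusted p = 0.815). The Elovl1 effect was lower in Germ than in Bulge by the test of the difference (−1.65, interval −2.72 to −0.59, adjusted p = 0.0427). Elovl4 (chr9:83778692-83806277, minus strand), which extends fatty acids to the ultra-long chains that Cers3 uses, rose 1.59-fold in EpSCs (0.67, adjusted p = 0.0447) in the authors' deposited table. It stood at 0.82 in Germ (interval 0.01 to 1.62, adjusted p = 0.189) and at −0.11 in Bulge (interval −1.35 to 1.14, adjusted p = 0.928) in that table. Cers3 and Elovl4, which act in sequence, were called in Bulge alone and in EpSCs alone, where 5.12% and 19.9% of all genes rose. No difference between populations passed the test for Elovl4, the smallest adjusted p being 0.5 (EpSCs minus Bulge). The calls alone do not show that these genes changed in different populations.

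Ugcg (chr4:59189257-59222833, plus strand), which transfers glucose to ceramide, had its largest fold change in Germ, 5.86-fold in the authors' deposited table (2.55, interval 1.34 to 3.76, adjusted p = 0.0232). It rose 3.78-fold in Bulge (1.92, interval 0.84 to 2.998, adjusted p = 0.0152) and 2.09-fold in EpSCs (1.06, interval 0.25 to 1.87, adjusted p = 0.0293) in that table. The share of all genes with a smaller log2 fold change was 95.3% in Germ, 96.1% in Bulge and 88.2% in EpSCs. The effects of Ugcg in EpSCs and Germ differed by −1.49 (interval −2.94 to −0.04, adjusted p = 0.183), which did not pass, though it did with the t score (adjusted p = 0.00682).

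Smpd1 (chr7:105554360-105558389, plus strand) makes ceramide by another route, the hydrolysis of sphingomyelin in lysosomes. Its log2 fold changes in the authors' deposited table were −0.35 in EpSCs, −0.08 in Germ and −0.09 in Bulge (adjusted p = 0.0909, 0.839 and 0.798). The interval in Bulge ran from −0.51 to 0.32 and that in EpSCs from −0.68 to −0.01. It was the only one of the 10 genes whose estimate was below 0 in every population.

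The annotation bears on 3 of these genes. In GENCODE M21 on GRCm38, Cers2 shares 75 exonic bases with Setdb1 and 144 with an antisense RNA gene, Elovl1 shares 53 with the mitotic gene Cdc20, and Cers4 shares 886 with a vomeronasal pseudogene and 214 with a locus of unassigned type, all on the opposite strand. The libraries kept strand, but whether reads were counted by strand is not given in the sources used here. In the authors' deposited table Setdb1 rose in EpSCs (0.92, adjusted p = 0.00544). It stood at 0.70 in Germ and 0.60 in Bulge without a call (adjusted p = 0.341 and 0.222). Cdc20 stood at 0.29 in EpSCs, 1.05 in Germ and 1.06 in Bulge without a call (adjusted p = 0.369, 0.0644 and 0.0785).

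The upstream sequences of Sptlc2, Elovl1 and Cers3 are shown because these genes, besides Ugcg, rose in Bulge. They are RefSeq windows of 250 bases that end just before the annotated start, 5′ to 3′ on the gene's strand (GRCm38.p6: chr12:87388356-87388605 minus, chr4:118427843-118428092 plus and chr7:66743254-66743503 plus). Capitals mark matches on either strand to the GC box GGGCGG and the CCAAT box.

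Sptlc2: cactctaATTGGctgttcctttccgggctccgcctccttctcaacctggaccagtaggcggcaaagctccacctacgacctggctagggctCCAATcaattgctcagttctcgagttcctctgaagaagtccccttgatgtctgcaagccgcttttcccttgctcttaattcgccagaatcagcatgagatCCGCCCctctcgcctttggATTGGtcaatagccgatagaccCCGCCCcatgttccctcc

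Elovl1: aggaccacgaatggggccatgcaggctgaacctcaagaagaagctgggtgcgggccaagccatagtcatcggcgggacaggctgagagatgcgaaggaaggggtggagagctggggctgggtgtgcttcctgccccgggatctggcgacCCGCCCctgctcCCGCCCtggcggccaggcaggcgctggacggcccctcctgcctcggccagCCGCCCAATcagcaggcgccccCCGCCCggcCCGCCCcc

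Cers3: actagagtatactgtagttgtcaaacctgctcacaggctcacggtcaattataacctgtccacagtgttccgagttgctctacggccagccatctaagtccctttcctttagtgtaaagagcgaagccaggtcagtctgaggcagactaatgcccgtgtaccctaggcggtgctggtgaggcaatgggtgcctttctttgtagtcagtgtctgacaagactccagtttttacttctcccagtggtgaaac

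The Cers3 window held none of 5 searched motifs, whereas that of Sptlc2 held 3 CCAAT boxes and 2 GC boxes. The Elovl1 window shown held 5 GC boxes and a CCAAT box that overlaps one of them. Another Elovl1 window, not shown (chr4:118429451-118429700, plus), held 2 GC boxes, no CCAAT box and 5 CG dinucleotides. The other motifs were AP-1 (TGANTCA), the E box CACGTG and the TATA box TATAAA. All 10 genes matched the RefSeq table, with 12 windows. A GC box lay in 9 of the 12 windows, against 32.7% of all 32851 windows in the table, and a CCAAT box in 5, against 33.8%. The E box lay in 2 (Cers2 and Degs1), against 6.02%, and AP-1 and the TATA box in 0, against 6.75% and 12.4%. The number of CG dinucleotides was 43 in the Ugcg window, more than in 99.3% of windows, 11 in that of Cers4 and 6 in that of Cers3. The median of all windows was 6. These are letter matches in short windows and say nothing of binding.

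The wider pathway was described with 7 lists of 95 symbols, of which 86 were measured. The lists were chosen with earlier results of these data known, so counts above the share of all genes are no independent test. Of the 86, 31 rose in EpSCs in the authors' deposited table and 6 fell (beside 19.9% and 20.0% of all genes), 2 rose and 0 fell in Germ (beside 0.847% and 0.210%), and 13 rose and 3 fell in Bulge (beside 5.12% and 5.16%). Their median log2 fold changes were 0.40, 0.20 and 0.17 in the same order. By the approximate test, the EpSCs effect was called different from that of Germ for 21 of the 86, and from that of Bulge for 14, while Germ and Bulge were called different for 11 (12.2%, 10.4% and 5.99% of all genes).

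**Figure D3:**
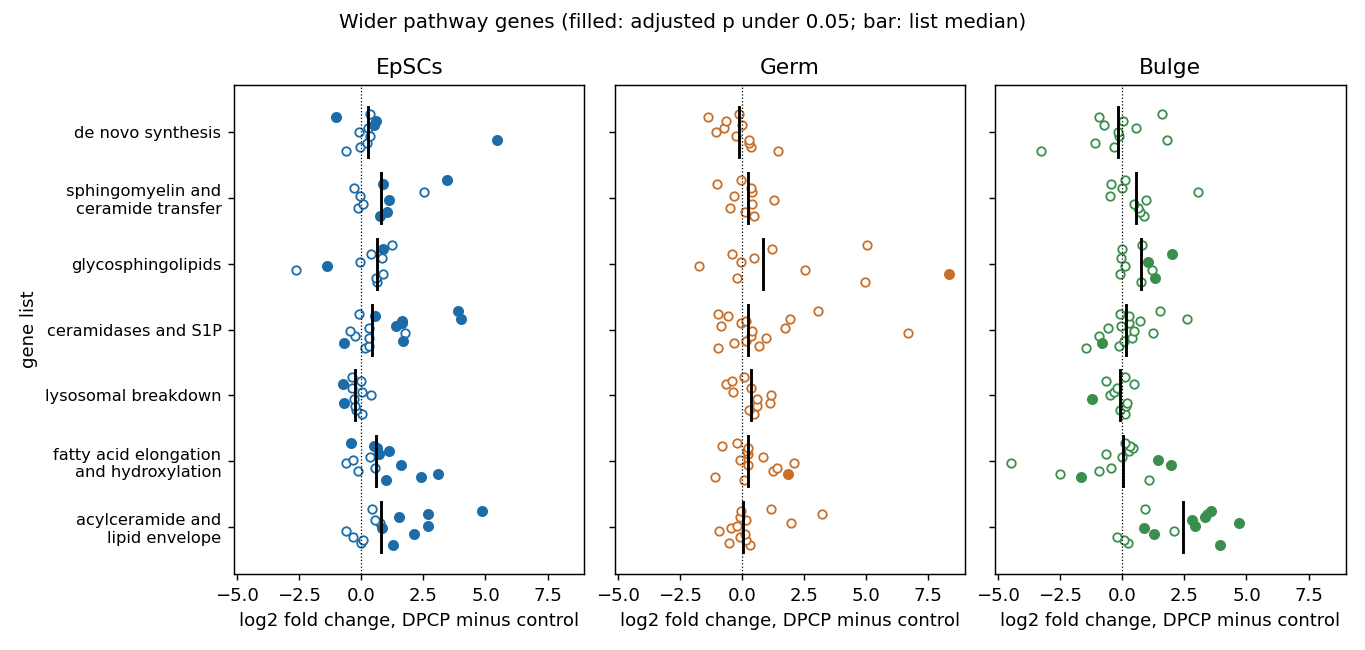
Log2 fold change (DPCP minus control, from the authors' limma fit) of the 86 measured genes in 7 lists of the wider pathway, by population; filled points have an adjusted p under 0.05, bars are list medians and S1P is sphingosine-1-phosphate. The acylceramide and lipid envelope list has a median of 2.43 in Bulge, 0.80 in EpSCs and 0.05 in Germ.

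Among other genes of de novo synthesis, 3 of 11 rose and 1 fell in EpSCs, with 0 called in Germ or Bulge. Among all genes 19.9% rose and 20.0% fell in EpSCs, so both counts in this small list lie near the background. In Germ 0.847% of all genes rose and 0.210% fell, and in Bulge 5.12% rose and 5.16% fell. Degs2, which hydroxylates ceramides to the phytoceramides of epidermis, rose 43.9-fold in EpSCs in the authors' deposited table (5.46, adjusted p = 1.6e-05). Sptlc3, an alternative catalytic subunit of serine palmitoyltransferase, rose by 0.59 (adjusted p = 0.00788) and Ormdl3, an inhibitor of that enzyme, by 0.51 (adjusted p = 0.0147) in the same population and table. Sptssa, a small activating subunit, fell by 1.04 there (adjusted p = 0.00811), and stood at −1.36 in Germ and −0.94 in Bulge without a call (adjusted p = 0.148 and 0.108). Ceramide synthase genes outside the 10 (Cers1, Cers5 and Cers6) were not called in any population, with Cers1 at −3.27 in Bulge (adjusted p = 0.0736) in the authors' deposited table. In Germ the smallest adjusted p-values of the list were those of Ormdl1 (−1.03), Sptssa, Ormdl2 (−0.74) and Sptlc3 (−0.65), from 0.141 to 0.273.

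Downstream of Ugcg, the glycosphingolipid enzymes had 1 of 10 higher and 1 lower in EpSCs, 1 higher in Germ and 3 higher in Bulge. Among all genes 19.9% rose and 20.0% fell in EpSCs, 0.847% rose in Germ and 5.12% rose in Bulge, so neither EpSCs count exceeds the background. B4galt5, which adds galactose to glucosylceramide to make lactosylceramide, rose 325-fold in Germ in the authors' deposited table (8.35, interval 4.28 to 12.4, adjusted p = 0.0238). St3gal5, which sialylates lactosylceramide to the ganglioside GM3, stood at 5.03 and A4galt, which makes globotriaosylceramide, at 4.96 in Germ, neither called (adjusted p = 0.0501 and 0.0777). In the same Germ comparison 6 of 8 melanocyte markers rose (median 6.09), as did 2 of 6 endothelial markers (median 4.37), while 0 of 4 fibroblast markers were called (median 3.48). The part of such cells in the Germ values of Ugcg and B4galt5 was not tested.

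In Bulge the glycosphingolipid genes that rose in the authors' deposited table included Gltp, a glucosylceramide carrier between membranes (2.001, adjusted p = 0.0158), and B4galnt1, which makes complex gangliosides (1.31, adjusted p = 0.0189). In EpSCs the sulfotransferase gene Gal3st1, which makes sulfatides, fell by 1.39 (adjusted p = 0.000788) and Plekha8, another glucosylceramide carrier, rose by 0.86 (adjusted p = 0.0247) in that table.

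Genes for the acylceramides and the lipid envelope of cornified cells rose in EpSCs (7 of 14) and Bulge (8 of 14), with 0 lower in each and 0 called in Germ. Beside them, 19.9% of all genes rose in EpSCs and 5.12% in Bulge, and 20.0% and 5.16% fell. In Germ 0.847% of all genes rose and 0.210% fell. In Bulge, Abca12, which loads glucosylceramides into lamellar bodies, rose 15.2-fold in the authors' deposited table (3.92, adjusted p = 0.0275), and Nipal4, mutated in human ichthyosis, rose 6.92-fold (2.79, adjusted p = 0.00754). Dgat2, an acyltransferase of triglyceride synthesis, rose by 0.89 and the tight junction gene Cldn1 by 1.26 in Bulge (adjusted p = 0.03 and 0.0368) in the same table. In EpSCs the epoxide hydrolase gene Ephx3 rose by 2.67 (adjusted p = 5.87e-06), Cldn1 by 2.10 (adjusted p = 5.47e-06), the transglutaminase gene Tgm1 by 4.85 (adjusted p = 0.000243) and Pnpla1, the acyltransferase that makes acylceramide, by 1.53 (adjusted p = 0.000649) in the authors' deposited table. Of 6 suprabasal markers, 1 rose and 2 fell in EpSCs (median −0.32), 1 fell in Germ (median −1.18), and 0 rose and 2 fell in Bulge (median −0.95).

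Fatty acid elongation and hydroxylation genes had 8 of 14 higher and 1 lower in EpSCs, 1 higher in Germ, and 2 higher and 1 lower in Bulge. The shares of all genes were 19.9% higher and 20.0% lower in EpSCs, 0.847% higher in Germ, and 5.12% higher and 5.16% lower in Bulge. Elovl7, an elongase, rose in EpSCs (1.61, adjusted p = 6.88e-05) and Bulge (1.96, adjusted p = 0.0159) in the authors' deposited table, as Elovl1 did. Acsl4, which activates long-chain polyunsaturated fatty acids, rose by 2.41 in EpSCs (adjusted p = 7.45e-06) and fell by 1.65 in Bulge (adjusted p = 0.0133) in that table. The dehydratase genes of the elongation cycle Hacd3 (1.13, adjusted p = 0.000161) and Hacd2 (0.72, adjusted p = 0.00147) rose in EpSCs in the authors' deposited table. In Germ, Elovl3, an elongase of sebaceous gland and hair follicle, rose by 1.84 (adjusted p = 0.0363), and Fa2h, the fatty acid hydroxylase, stood at 2.10 (adjusted p = 0.065) in the same table. In Bulge, Fa2h stood at −4.48 there without a call (adjusted p = 0.0624), while Fasn, the fatty acid synthase gene, rose by 1.44 (adjusted p = 0.0438).

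Sebaceous gland markers had 4 of 9 higher and 0 lower in EpSCs (median 0.90), 0 called in Germ (median 0.53) and 2 higher and 4 lower in Bulge (median −0.82). Fasn stands in both lists. Over all genes 19.9% rose and 20.0% fell in EpSCs, 0.847% rose and 0.210% fell in Germ, and 5.12% rose and 5.16% fell in Bulge. The part of sebaceous cells in the Cers4 values was not tested.

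Ceramidases and genes of sphingosine-1-phosphate, the signalling lipid made from the ceramide backbone, had 7 of 16 higher and 1 lower in EpSCs. Among all genes 19.9% rose and 20.0% fell in EpSCs, 0.847% and 0.210% in Germ, and 5.12% and 5.16% in Bulge. The Germ and Bulge counts of this list, given below, lie near those shares. The lyase gene Sgpl1 (1.66, adjusted p = 1.82e-05), the phosphatase gene Sgpp1 (1.65, adjusted p = 1.93e-05) and Aldh3a2, which oxidizes the aldehyde that the lyase releases (1.70, adjusted p = 3.09e-05), rose there in the authors' deposited table. The receptor gene S1pr5 also rose in EpSCs (1.39, adjusted p = 0.000124). In Germ 0 of the 16 were called, with the receptor gene S1pr1, which endothelial cells express strongly, at 6.71 and the exporter gene Spns2 at 3.05 (adjusted p = 0.0686 and 0.0592) in the same table. In Bulge only the alkaline ceramidase gene Acer3 was called, and it fell by 0.81 (adjusted p = 0.0458) in that table.

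Sphingomyelin genes had 5 of 10 higher in EpSCs, beside 19.9% of all genes. In Germ and Bulge 0 were called, beside 0.847% and 5.12% of all genes that rose. The largest rise was that of the phosphodiesterase-like gene Smpdl3b, a paralogue of Smpd1, at 10.9-fold in EpSCs in the authors' deposited table (3.44, adjusted p = 0.000107). The sphingomyelin synthase gene Sgms2 rose by 1.11 in EpSCs (adjusted p = 0.00638) and stood at 1.30 in Germ and 0.97 in Bulge (adjusted p = 0.0789 and 0.0666) in that table. The ceramide-1-phosphate carrier gene Cptp rose by 1.02 in EpSCs (adjusted p = 0.00425), and Col4a3bp, which carries ceramide to the Golgi for sphingomyelin synthesis, stood at 0.87 in Bulge (adjusted p = 0.0525) in the same table.

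Lysosomal sphingolipid breakdown genes, among which Smpd1 acts, had 0 of 11 higher and 2 lower in EpSCs, 0 called in Germ and 1 lower in Bulge. Among all genes 19.9% rose and 20.0% fell in EpSCs, 0.847% and 0.210% in Germ, and 5.12% and 5.16% in Bulge. The counts of lower genes in the list thus lie near the background. The cholesterol exporter gene Npc1 fell by 0.72 (adjusted p = 0.0126) and the galactosidase gene Glb1 by 0.69 (adjusted p = 0.0407) in EpSCs, and the ganglioside activator gene Gm2a fell by 1.21 in Bulge (adjusted p = 0.0162), in the authors' deposited table. The list medians were −0.24 in EpSCs, 0.36 in Germ and −0.11 in Bulge.

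The genes whose 3 log2 fold changes lay nearest to those of a ceramide gene, by Euclidean distance over the 3 comparisons, were found for Cers3, Cers4 and Elovl4. Predicted gene symbols were skipped. Nearest to Cers3 were Reep4, Abhd17c and Siah2, at distances of 0.16, 0.17 and 0.19. Nearest to Cers4 were Klhl22, Spats2l and Eml1, each at 0.17, with EpSCs values of 1.80, 1.64 and 1.93 and Bulge values of −0.82, −0.94 and −0.87 in the authors' deposited table. Klhl22 was not called in EpSCs (adjusted p = 0.238), and none was called in Bulge (adjusted p = 0.056, 0.0562 and 0.179). Nearest to Elovl4 were Ss18l1, Psip1 and Trpm7, at 0.02, 0.07 and 0.07.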

How the data were processed

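Per the labels' protocols, stranded messenger RNA libraries of sorted mouse skin cells were read as paired ends. STAR 2.7.6a, limma 3.60.6, cutadapt 3.5 and FastQC 0.11.9 are named, with builds GRCm38 and mm10, per the submitters' processing notes. How reads were counted, filtered and normalized, and which model limma fitted, is not given in the sources used here.

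Log2 fold changes of DPCP over control were deposited for 13816 gene IDs and 3 populations. With them the authors gave the limma p-value of each, raw and adjusted; the adjusted ones lay within 2e-14 of Benjamini-Hochberg values computed here. The table had 48 columns. Of these, 36 held values per library under names that match no sample label, and they were not used. Depth is therefore unknown, and the planned fits on library values and comparisons of populations in control skin were not run.

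Each p-value was turned into a normal score with scipy 1.17.1, and the log2 fold change divided by it served as standard error for intervals and for differences of effects. This assumes independent libraries. The difference test was tested on simulated data, and its calls are approximate, since their share of false ones can exceed the threshold. Positions came from GENCODE M21 (GRCm38), whose gene IDs equal those of the table for the 10 genes.

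The genes and lists were chosen with earlier results of these data known. Named genes were the 10 genes, up to 4 of each wider list and population by adjusted p, and the 3 nearest genes of Cers3, Cers4 and Elovl4. Cers5, Krt15, Cd34, Fgf18 and Lgr5 were named after their values were seen. A gene that this rule names is not reported here. Alternatives concerned the adjustment, the thresholds, a minimum fold, centring, the gene set and the score.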

Additional observations from a re-analysis of the deposited data

Results flagged for a closer look

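The DPCP effect differed between populations, by the approximate test of the difference itself, in 4 cases among the 10 genes. For Cers4 the effect in EpSCs minus that in Bulge was 2.62 (adjusted p = 0.00262) and the effect in Germ minus that in Bulge was 1.85 (adjusted p = 0.014). For Cers2 the effect in EpSCs minus that in Bulge was 1.87 (adjusted p = 0.0366). For Elovl1 the effect in Germ minus that in Bulge was −1.65 (adjusted p = 0.0427). Values per library were not used, so no library was examined for standing apart.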

How the results depend on the processing

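No paired analysis was possible because the library columns carried no label that ties them to a numbered sample, and for the same reason leaving out a replicate, another pseudocount and another filter were not run. Of the 10 genes, 8 rose in EpSCs, 1 in Germ and 4 in Bulge. With Benjamini-Yekutieli adjustment 3, 0 and 0 rose, and at an adjusted p under 0.01, 5, 0 and 0 rose, in the same order. The genes called under Benjamini-Yekutieli in EpSCs were Sptlc2, Degs1 and Elovl1. At an adjusted p under 0.10, 8, 4 and 6 rose, with Sptlc2, Cers2 and Cers4 added in Germ and Sptlc1 and Degs1 in Bulge. Smpd1 was called lower in EpSCs at that threshold (−0.35, adjusted p = 0.0909). Called differences between EpSCs and Bulge were 2, or 1 with Benjamini-Yekutieli and 1 at 0.01 (Cers4 in both cases). With standard errors rebuilt from a t score of 4 degrees of freedom, the looser test, there were 5 (Cers3, Elovl1 and Degs1 added). Between Germ and Bulge there were 2, 0 with Benjamini-Yekutieli, 0 at 0.01 and 3 at 0.10 (Cers2 added). Between EpSCs and Germ there were 0, and 1 at 0.10 (Elovl1), 1 with median-centred fold changes (Elovl1) and 3 with the t score (Ugcg, Elovl1 and Sptlc2). In the comparisons with control, a minimum of 1.5-fold, protein-coding genes alone and centring changed no count of the 10 genes. A minimum fold and protein-coding genes alone were not run for the differences. Over all genes, the numbers higher in EpSCs, Germ and Bulge were 2748, 117 and 708, and with Benjamini-Yekutieli 1301, 0 and 31, at 0.01 1631, 13 and 78, and at 0.10 3369, 604 and 1358. Called differences over all genes were 1690 (EpSCs minus Germ), 1433 (EpSCs minus Bulge) and 828 (Germ minus Bulge), and ran from 603, 411 and 95 with Benjamini-Yekutieli to 2511, 2761 and 1543 with the t score. With depth unknown, the precision behind a missing call is unknown beyond its interval.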
